A study of Mus musculus with 27 samples.

Results

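The messenger RNA of 37 genes of glycolysis and the hypoxia response was followed through mouse thyroid tumor cell lines driven by mutant Braf. The genes were chosen by name: 2 glucose transporters, 16 glycolytic enzymes, 5 genes that handle lactate and pyruvate, 12 hypoxia targets and the 2 alpha subunits of the hypoxia-inducible factors. All 37 were found among the 33924 gene symbols of the count table, and all 37 were among the 15634 genes that passed the filter on low counts. All tumor lines carry Braf(V600E), either alone or together with loss (KO) of 1 of 3 genes of the SWI/SNF complex, a chromatin remodeler: Arid1a, Arid2 and Smarcb1. Each of these 4 genotypes had 3 lines, and each line gave 1 library under vehicle (Trappsol) and 1 under CH5126766 (CKI), which blocks RAF and MEK, given at 300 nM over 8 days. Bovine TSH is named with the treatment, but the wording leaves unclear whether vehicle cultures had it too. A further kind of sample, 3 wildtype libraries, had no treatment. Tumor lines were grown out of dissected and digested tumors, and neither the promoter that drove recombination nor the clonality of a line is given in the sources used here.

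Glycolysis splits glucose into pyruvate, and tumor cells often turn much of that pyruvate into lactate even where oxygen is present. The hypoxia-inducible factors are pairs of an alpha and a beta subunit that bind short DNA motifs and raise the transcription of glucose transporters, glycolytic enzymes, Ldha, Pdk1 and genes for blood supply, pH control and mitochondrial turnover. In normal oxygen, prolyl hydroxylases mark the alpha subunits for destruction, so that their RNA level need not follow the activity of the protein. Signaling through RAF, MEK and ERK is itself known to raise glycolytic genes, through factors that include MYC and the hypoxia-inducible factors.

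Libraries held 18417255 to 27257703 counts, except for 2 Smarcb1 KO libraries under CKI, from lines BS53958 (11684983) and BS53965 (2884130). Levels are CPM, each count as a share of its library's total after TMM scaling, and they are compared between libraries, never between genes. Smarcb1 stood at 0.0475 to 3.27 CPM in its own KO lines and at 68.0 to 99.2 CPM in the other tumor libraries. Arid1a stood at 62.7 to 96.1 CPM against 117.7 to 357.3 CPM, and Arid2 overlapped, at 78.2 to 175.2 CPM against 77.7 to 150.6 CPM. Counts over a whole gene do not check the loss of single exons, so the last group is called the lines labelled Arid2 KO. Of 8 thyroid follicular markers, the transcription factor genes Pax8 and Nkx2-1 were present in the tumor lines. Line AB52980, labelled Arid2 KO, held skeletal muscle markers at a summed 235.7 CPM in vehicle and 2381 CPM under CKI, against at most 13.9 CPM in the other tumor libraries. Smarcb1 KO line BS53965 held 1 of 8 endothelial markers, Cdh5, at 659.3 CPM in vehicle and 57.0 CPM under CKI, against at most 6.08 CPM in the other tumor libraries, while the other 7 markers summed to 7.62 and 0.594 CPM there. Line BS53958 kept the summed level of 10 proliferation genes under CKI (2496 CPM in vehicle and 2516 CPM under CKI). In bulk RNA of this kind, fewer cells of a type and less RNA per cell cannot be told apart.

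Across the tumor lines, CKI lowered most genes of the path from glucose uptake to lactate. The comparison asked how the genes respond to the inhibitor on average over the 4 genotypes, in 1 fit of all 24 tumor libraries. By edgeR's quasi-likelihood test, with Benjamini-Hochberg adjustment over all genes and a threshold of 0.05, 22 of the 37 genes changed: 21 fell and 1, Pfkfb3, rose. Over all genes tested, 13.6% fell and 13.6% rose. The median log2 change was -0.87 for the 37 genes and 0.03 for all genes. By role, the genes that fell were 1 of 2 transporters, 11 of 16 glycolytic enzymes, 4 of 5 lactate and pyruvate genes and 5 of 12 hypoxia targets. The 2 alpha subunits did not pass the test.

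**Figure D1:**
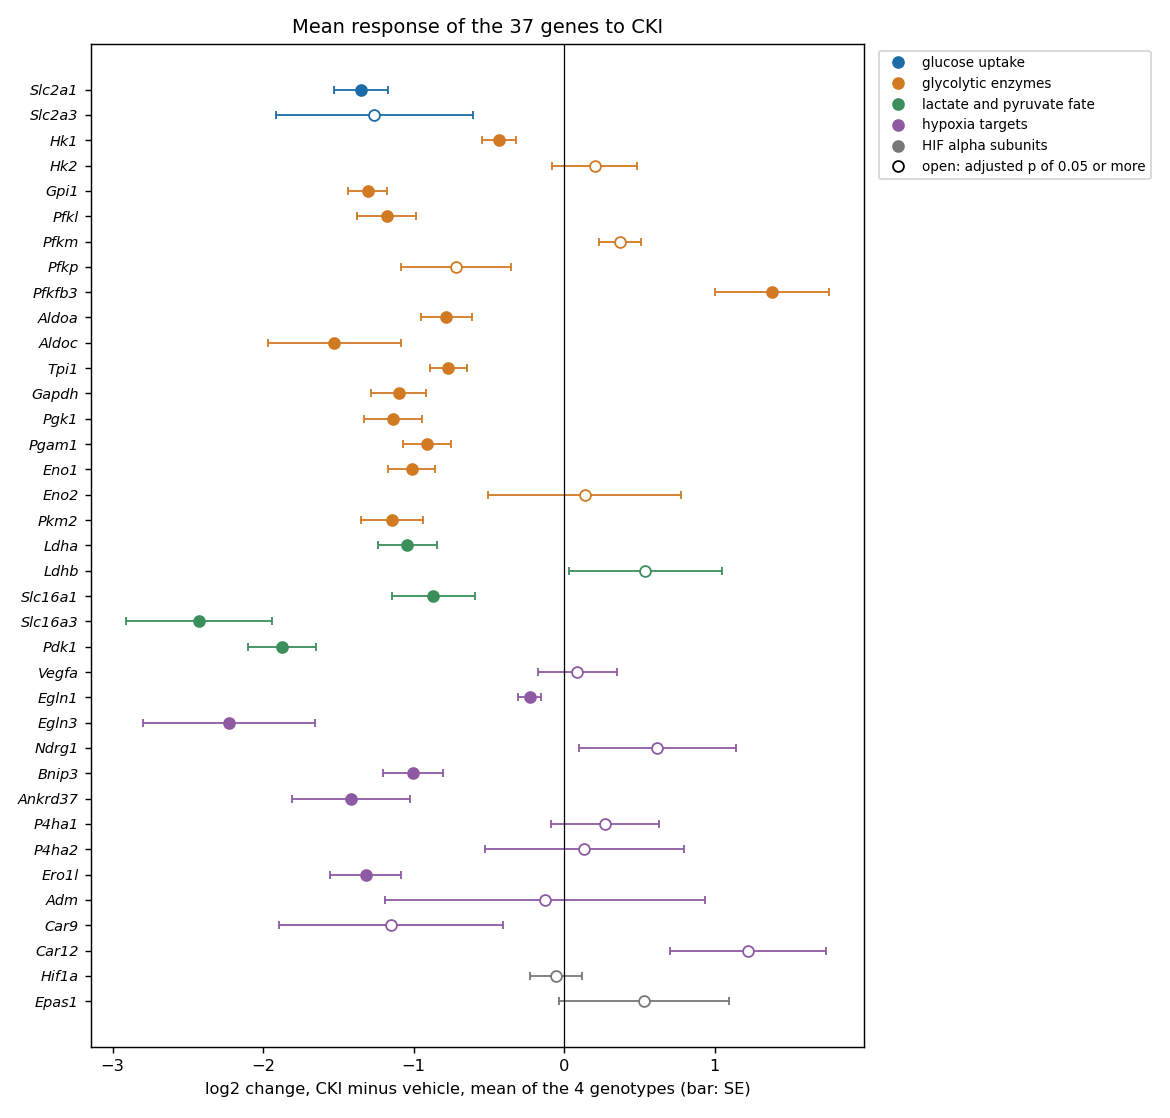
Mean log2 change (CKI minus vehicle) of each of the 37 genes over the 4 genotypes, with its SE, by role (color). Filled points passed the test (22 genes), and open points did not. Most glycolytic enzymes sit to the left of 0, Pfkfb3 sits to the right at 1.38, and many hypoxia targets spread on both sides of 0.

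Slc2a1, the main glucose transporter of many tumor cells, ranged from 92.4 CPM through a median of 164.9 to 313.9 CPM in the 12 vehicle libraries, and from 34.4 through 73.5 to 108.3 CPM under CKI. The ranges overlapped slightly, and the level was lower under CKI in each of the 12 lines. Its log2 change was -1.35 ± 0.18 (SE), with an edgeR adjusted p of 0.0001181. Slc2a3, a second glucose transporter, was low (at most 25.3 CPM) and was lower under CKI in 7 lines and higher in 5.

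Among the enzymes of the upper pathway, some isoforms passed the test and others did not. Hk1, a constitutive hexokinase that traps glucose in the cell, fell by 0.43 ± 0.11 on the log2 scale (edgeR adjusted p = 0.009141), while Hk2, its inducible relative, did not pass the test (0.20 ± 0.28). Gpi1, glucose phosphate isomerase, gave the smallest adjusted p of the 37 genes, 2.05e-05 (edgeR). Its levels ran from 351.4 through a median of 602.7 to 1042 CPM in vehicle and from 139.3 through 224.9 to 528.1 CPM under CKI, a log2 change of -1.31 ± 0.13. The phosphofructokinase subunits catalyze the committed step, and of these Pfkl fell (-1.18 ± 0.20), whereas Pfkp (-0.72 ± 0.36) and Pfkm (0.37 ± 0.14) did not pass. Pfkfb3, which makes an activator of phosphofructokinase, went the other way: from 9.95 through 18.0 to 111.2 CPM in vehicle and from 17.6 through 50.0 to 212.7 CPM under CKI. That rise was 1.38 ± 0.38 on the log2 scale (edgeR adjusted p = 0.01249). It was higher under CKI in all 12 lines, though in BS53965 by only 0.01.

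The lower pathway, which makes ATP, NADH and pyruvate, moved together. The falls were 0.78 ± 0.17 for Aldoa (aldolase), 0.77 ± 0.12 for Tpi1 (triosephosphate isomerase), and 1.10 ± 0.18 for Gapdh, where each log2 change is negative. Pgk1 (phosphoglycerate kinase) decreased by 1.14 ± 0.19, Pgam1 (phosphoglycerate mutase) decreased by 0.91 ± 0.16, Eno1 (enolase) decreased by 1.01 ± 0.16 and Pkm2 (pyruvate kinase) decreased by 1.15 ± 0.20. Their adjusted p-values (edgeR) lay between 0.0003289 for Eno1 and 0.003454 for Aldoa. Pkm2 is the table's symbol for the whole gene, so the counts do not separate its splice forms. Aldoc, an aldolase of brain, decreased by 1.53 ± 0.44, and its call was lost without lines BS53958 and BS53965 (unblocked log2 change -1.08, and an edgeR adjusted p of 0.3023 with the line as a block). Eno2, the enolase of neurons, did not pass (0.14 ± 0.64).

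At the fate of pyruvate, Ldha, Pdk1 and both lactate carriers fell, while Ldhb passed only in a fit that holds each line as a block. Ldha encodes the lactate dehydrogenase subunit that favors lactate production, and it ran from 686.9 through 1184 to 1952 CPM in vehicle and from 331.0 through 479.5 to 1456 CPM under CKI (log2 change -1.04 ± 0.20, edgeR adjusted p = 0.00125). Ldhb, which encodes the subunit of oxidative tissues, had a log2 change of 0.54 ± 0.51 without the block and 0.63 ± 0.19 with it (edgeR adjusted p = 0.02026). Pdk1, a kinase that shuts pyruvate out of the mitochondrial citrate cycle, fell in all 12 lines. Its level ran from 42.2 through 64.2 to 126.9 CPM in vehicle and from 9.56 through 18.7 to 46.6 CPM under CKI, a log2 change of -1.87 ± 0.23 (edgeR adjusted p = 7.058e-05). Of the proton-linked lactate carriers, Slc16a3 (the exporter of glycolytic cells) fell by 2.43 ± 0.48 and Slc16a1 by 0.87 ± 0.28 on the log2 scale. Slc16a3 was at most 15.1 CPM in any tumor library. The call of Slc16a1 was lost in 7 of 22 alternative fits, including those without BA49112, AB52980, B52482, BS53736 or BS53965, with adjusted p up to 0.1319 (edgeR).

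The hypoxia targets did not move together. The 5 that fell were Bnip3 (a mitophagy receptor, -1.01 ± 0.20), Ero1l (an oxidase of the endoplasmic reticulum, -1.32 ± 0.24), Ankrd37 (-1.42 ± 0.39), Egln3 (-2.23 ± 0.57) and Egln1 (-0.23 ± 0.08). Egln1 and Egln3 encode prolyl hydroxylases that mark the alpha subunits for destruction. Bnip3 ran from 21.1 through 37.4 to 85.8 CPM in vehicle and from 9.29 through 21.3 to 32.6 CPM under CKI (edgeR adjusted p = 0.001784). The other 7 targets did not pass. Vegfa, which encodes the main growth factor of blood vessels, had a log2 change of 0.09 ± 0.26 and was lower in 6 lines and higher in 6. P4ha1 and P4ha2, collagen prolyl hydroxylases, had changes of 0.27 ± 0.36 and 0.13 ± 0.66, and Ndrg1 had 0.62 ± 0.52. Hif1a had similar ranges in both arms (49.0 through 139.5 to 191.6 CPM in vehicle and 50.2 through 137.1 to 167.2 CPM under CKI, log2 change -0.05 ± 0.17). The call of Egln1 was lost in 11 of 22 alternative fits, 8 of them leaving out 1 line, with adjusted p up to 0.07667 (edgeR). That of Egln3 was lost without lines BS53958 and BS53965 in the unblocked fit (adjusted p = 0.1409, edgeR).

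**Figure D2:**
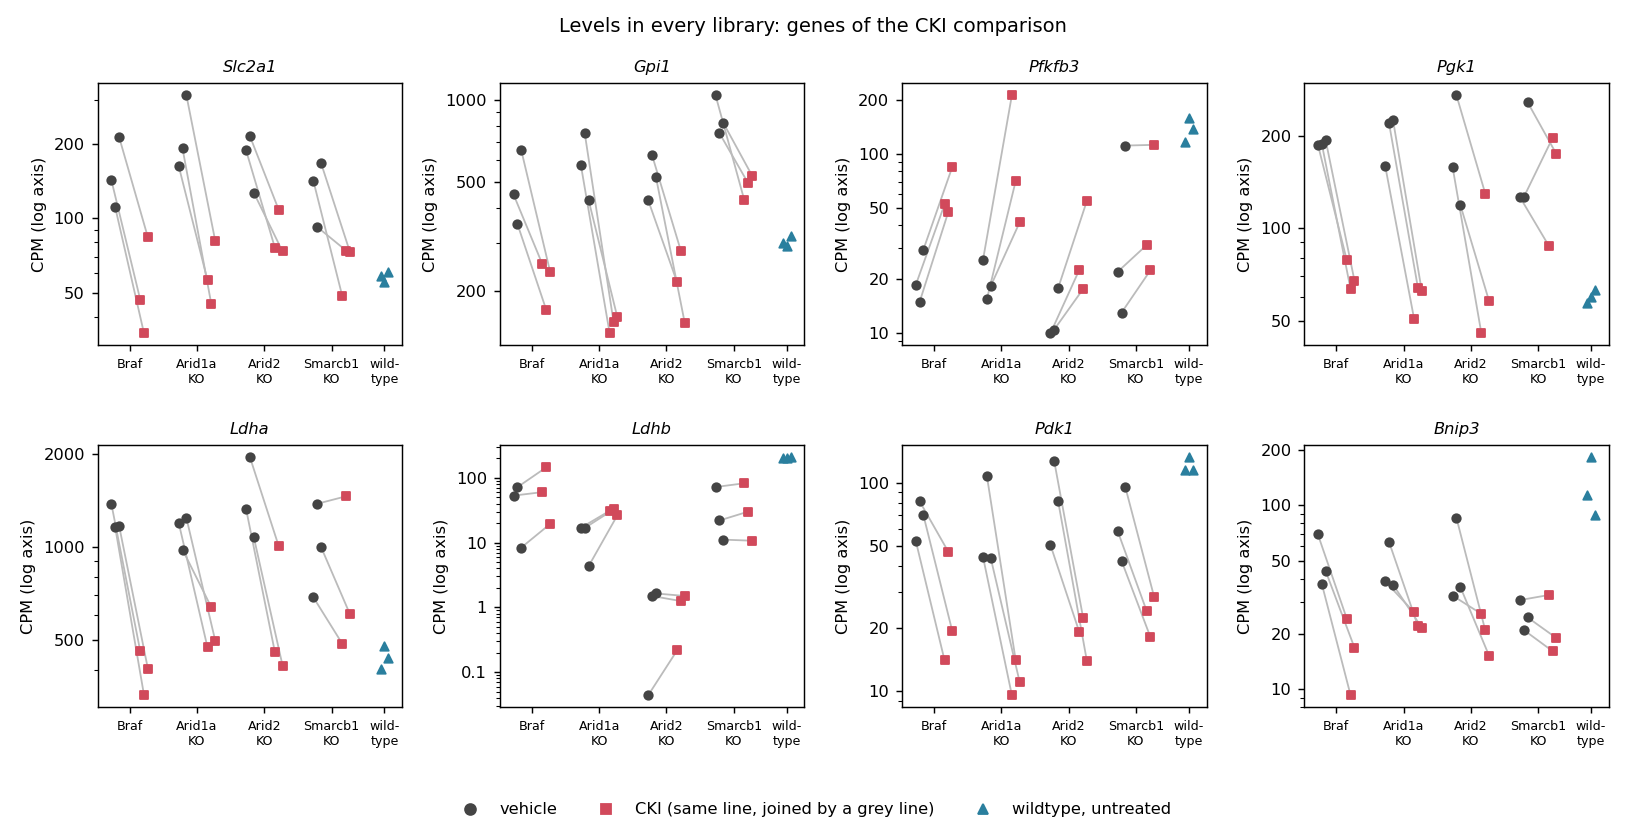
Levels (CPM, log axis) of 8 genes in all 27 libraries, with the vehicle and CKI libraries of a line joined. The joined lines slope down for Slc2a1, Gpi1 and Pdk1 in all 12 lines, up for Pfkfb3, and flat or up for Ldhb in most lines. Wildtype libraries are triangles.

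The DNA before the start sites of the 37 genes was read for the core of the motif that hypoxia-inducible factors bind, ACGTG or GCGTG on either strand. Windows of 250 bases before the start site were taken from RefSeq on GRCm38.p6, which is not the mm9 build of the counts, for 34 of the 37 genes. Slc2a3, Ndrg1 and Epas1 had no entry. ACGTG was present for 21 of 34 genes (61.8%), against 24.4% of the 10319 tested genes found under the same symbol and 18.5% of all 27025 genes with a window. GCGTG was present for 22 of 34 (64.7%), against 49.0% and 30.9%, and either motif for 30 of 34 (88.2%), against 60.0% and 41.5%. A gene with several windows counted if any held the motif, and a CACGTG, also the core site of MYC and related factors, holds ACGTG on both strands and so gives a match on each. Windows are shown for 4 genes that fell and hold matches, for Gpi1, which fell but had no match, and for Pfkfb3, which rose. The 4 were not those with the largest falls. Each window runs 5′ to 3′ in the direction of transcription, with matches in capitals.
Ldha: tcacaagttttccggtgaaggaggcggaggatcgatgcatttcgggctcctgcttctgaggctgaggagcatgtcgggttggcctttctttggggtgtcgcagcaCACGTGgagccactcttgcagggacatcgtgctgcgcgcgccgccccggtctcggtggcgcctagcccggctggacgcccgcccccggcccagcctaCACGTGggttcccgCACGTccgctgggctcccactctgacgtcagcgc
Pgk1: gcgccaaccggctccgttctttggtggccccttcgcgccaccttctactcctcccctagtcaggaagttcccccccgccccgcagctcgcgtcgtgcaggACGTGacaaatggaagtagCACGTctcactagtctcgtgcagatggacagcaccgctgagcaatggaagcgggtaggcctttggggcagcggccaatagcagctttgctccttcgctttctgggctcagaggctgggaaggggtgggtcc
Slc2a1: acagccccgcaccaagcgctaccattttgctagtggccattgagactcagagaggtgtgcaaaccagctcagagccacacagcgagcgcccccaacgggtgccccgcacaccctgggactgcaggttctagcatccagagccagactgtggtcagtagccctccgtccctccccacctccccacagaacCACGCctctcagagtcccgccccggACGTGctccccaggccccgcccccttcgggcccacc
Bnip3: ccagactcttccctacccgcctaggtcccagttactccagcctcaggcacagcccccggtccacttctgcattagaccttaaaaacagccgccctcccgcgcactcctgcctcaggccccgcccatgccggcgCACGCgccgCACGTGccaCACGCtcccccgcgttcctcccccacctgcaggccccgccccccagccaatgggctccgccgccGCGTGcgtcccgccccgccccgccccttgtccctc
Gpi1: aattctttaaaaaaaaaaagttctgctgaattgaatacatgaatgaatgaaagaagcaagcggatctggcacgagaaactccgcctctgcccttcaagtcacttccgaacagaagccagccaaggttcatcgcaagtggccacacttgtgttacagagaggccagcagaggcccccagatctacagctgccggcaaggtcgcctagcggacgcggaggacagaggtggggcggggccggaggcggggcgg
Pfkfb3: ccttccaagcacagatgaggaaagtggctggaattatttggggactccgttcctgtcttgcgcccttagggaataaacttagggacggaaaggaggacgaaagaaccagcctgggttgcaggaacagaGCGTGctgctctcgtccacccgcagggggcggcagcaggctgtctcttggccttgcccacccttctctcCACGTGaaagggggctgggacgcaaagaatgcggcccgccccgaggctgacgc
These windows lie at chr7:46845554-46845803 (Ldha, plus strand), chrX:106186850-106187099 (Pgk1, plus), chr4:119108495-119108744 (Slc2a1, plus), chr7:138909507-138909756 (Bnip3, minus), chr7:34230337-34230586 (Gpi1, minus) and chr2:11502091-11502340 (Pfkfb3, minus), all upstream of the annotated transcript. For Ldha and Pfkfb3, which have 2 windows each, the window with more matches is shown. Ldha holds 5 matches and Bnip3 holds 5, Pfkfb3 holds 3, and Pgk1 and Slc2a1 hold 2 each. The 4 fallen genes shown with matches were picked among those that have them. Over all 21 genes that fell, 19 held either motif (13 ACGTG and 14 GCGTG), and Gpi1 and Tpi1 held neither. Of the 12 genes with a window that did not pass, 10 held either motif. A match describes the letters and not a bound site.

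Within single lines between 9 (BS53958) and 15 (B48051 and AB55694) of the 16 glycolytic enzymes were lower under CKI. The 23 genes of uptake, glycolysis, lactate and pyruvate summed to 7590 to 13100 CPM in vehicle. Under CKI this sum was 44.7%, 40.9% and 44.3% of vehicle in the Braf lines B47275, B48051 and B52482. It was 47.9%, 44.9% and 39.2% in the Arid1a KO lines BA45198, BA47473 and BA49112, and 41.4%, 59.8% and 51.7% in the lines AB51189, AB52980 and AB55694 labelled Arid2 KO. In the Smarcb1 KO lines it was 60.6% in BS53736, 92.3% in BS53958 and 50.1% in BS53965. All 12 lines were thus below their vehicle, and BS53958 was nearest to it. The sum of the 12 hypoxia targets showed no such direction, at 62.4% to 169% of vehicle, lower in 7 lines and higher in 5.

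**Figure D3:**
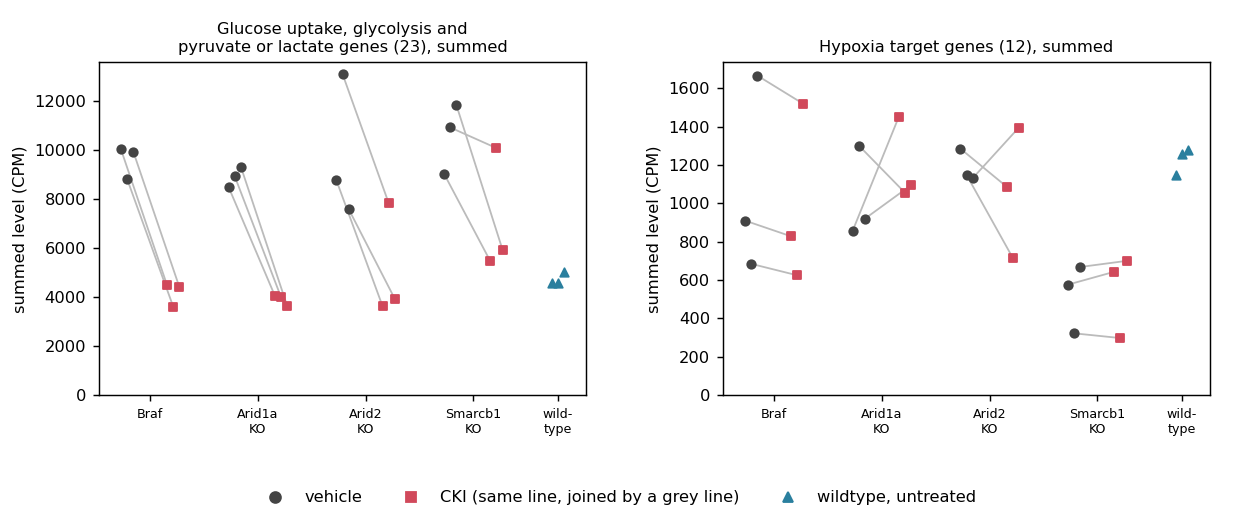
Summed levels (CPM) of the 23 glycolysis, uptake, lactate and pyruvate genes (left) and of the 12 hypoxia targets (right) in all 27 libraries, with the 2 libraries of a line joined. On the left every line falls, from 7590 to 13100 CPM in vehicle; on the right lines fall and rise. The wildtype libraries sit at 4573 to 5031 CPM on the left.

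Other gene lists also differed between the arms. Over 12 MAPK output genes, such as Dusp6 and Etv4, the summed level was 2570 to 4788 CPM in vehicle and 927.6 to 2860 CPM under CKI, with 8 of 12 lower and 1 higher in the mean response. In BS53958 it moved from 3211 to 2860 CPM. Of 10 proliferation genes 9 fell, and their summed level ran from 980.6 to 2496 CPM in vehicle and from 245.5 to 2516 CPM under CKI. It did not fall in BS53958 or in AB52980 (980.6 to 1587 CPM). Marker lists differed too, some opposite in direction to the glycolytic sum. Summed fibroblast markers (8 genes, none at 0 throughout any group) were higher under CKI in 8 of 12 lines, at 6.91 to 3655 CPM in vehicle and 22.2 to 6757 CPM under CKI. In the lines labelled Arid2 KO they summed to 21.8 to 37.9 CPM in vehicle and 517.9 to 1145 CPM under CKI. There the rise was mostly that of Col1a1 (group mean 1.43 CPM in vehicle and 326.6 CPM under CKI) and Col3a1 (17.4 and 412.1 CPM). Means of Col1a2, Lum, Pdgfra, Fbln1, Dcn and Dpt were at most 14.7 CPM under CKI. Summed thyroid follicular markers were higher in 11 of 12 lines, summed skeletal muscle markers in 11 and summed adipocyte markers in 10, while endothelial, red blood cell, leukocyte and C cell sums were higher in 5, 5, 7 and 7. Outside AB52980 the muscle sum was at most 13.9 CPM. Red blood cell, leukocyte and C cell sums were at most 6.31, 18.7 and 11.9 CPM in any tumor library. At such levels a direction within a line can rest on few counts and is not read as a response. In Arid1a KO lines the adipocyte sum was 1.75 to 6.30 CPM in vehicle and 197.3 to 323.5 CPM under CKI. That sum was mostly Lpl (group mean 0.606 CPM in vehicle and 196.7 CPM under CKI) and Pparg (3.32 and 44.6 CPM). Means of Adipoq, Fabp4, Plin1 and Cfd were at most 0.745 CPM under CKI. The part of proliferation, MAPK output or marker genes in the glycolytic change was not tested. Without AB52980, 23 of the 37 genes passed in the blocked fit, against 25 with all lines. Over all genes the blocked fit with all lines called 21% lower and 21.9% higher, and the share without AB52980 is not given here.

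Gene by gene, 8 of the 37 were lower under CKI in all 12 lines: Slc2a1, Gpi1, Pfkl, Tpi1, Gapdh, Eno1, Pkm2 and Pdk1. Of all genes tested, 4.83% were lower in all 12 lines and 3.91% were higher in all 12. The only one of the 37 that was higher in all 12 was Pfkfb3. Another 10 were lower in 11 lines, and the share of all genes lower in 11 lines was not counted. For 6 of these 10 (Hk1, Aldoa, Pgk1, Pgam1, Ldha and Ankrd37) the exception was BS53958, with changes of 0.08, 0.05, 0.64, 0.15, 0.08 and 0.31 on the log2 scale. The median change over the 37 genes was between -0.47 and -1.06 in the 9 lines without Smarcb1 KO. It was -0.10 in BS53736, -0.05 in BS53958 and -0.62 in BS53965.

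**Figure D4:**
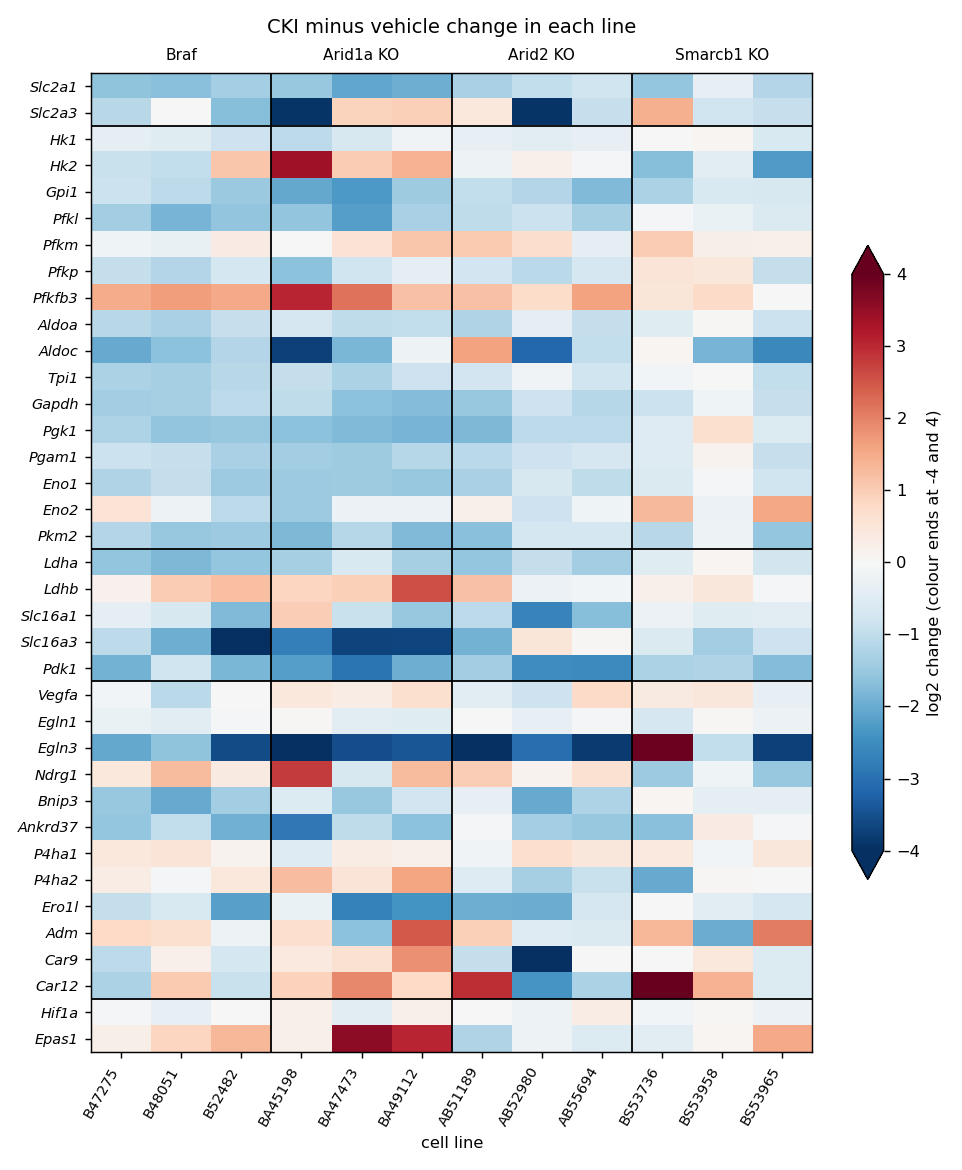
Log2 change (CKI minus vehicle, CPM with a prior count of 2) of the 37 genes (rows, by role) in each of the 12 lines (columns, by genotype). Blue is lower and red is higher under CKI, and colors end at -4 and 4. The glycolytic rows are blue in most lines and pale in BS53958, Pfkfb3 is red, and the hypoxia targets are mixed.

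Genotype by genotype, the median log2 change of the 37 genes was -1.05 in Braf lines, -0.89 in Arid1a KO lines, -0.86 in lines labelled Arid2 KO and -0.29 in Smarcb1 KO lines. How many genes passed depended on whether the line was a term in the fit. The vehicle and CKI libraries of a line share the line, so a second fit held each line as a block. In Braf lines no gene passed without the block, of the 37 or of all genes (0%), although 18 of the 37 had an unadjusted p under 0.05 (11.2% of all genes did) and DESeq2 called 10, all lower (0.998% of all genes). With the block 14 passed, 13 lower and Pfkfb3 higher, against 1.06% of all genes lower and 1.42% higher. Ldha went from 1378, 1156 and 1171 CPM to 461, 331 and 403 CPM, with no overlap (blocked log2 change -1.63 ± 0.20, edgeR adjusted p = 0.007693). Pfkl went from 234, 194 and 235 CPM to 88.9, 53.3 and 78.7 CPM, also apart (-1.604 ± 0.18, edgeR adjusted p = 0.006343).

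The Arid1a KO lines gave the longest list. Of the 37 genes, 15 passed, 13 lower and 2 higher (Hk2 and Pfkfb3), against 6.84% and 7.08% of all genes. With the block 24 passed, 19 lower and 5 higher, against 15.3% and 17% of all genes, with Ldhb, P4ha2 and Epas1 added on the higher side. Gpi1 went from 577, 756 and 430.1 CPM to 139, 153 and 159.5 CPM (-1.95 ± 0.26, edgeR adjusted p = 0.001113), the groups far apart. Hk2 went from 30.8, 44.2 and 38.5 CPM to 323, 90.4 and 101 CPM, higher in all 3 lines (2.20 ± 0.59, edgeR adjusted p = 0.02177). Slc16a3 went from 3.77, 5.92 and 11.5 CPM to 0.491, 0.371 and 0.809 CPM. Leaving out BA45198, BA47473 or BA49112 left 4, 2 and 3 genes, all lower, with Gpi1 and Pdk1 passing each time. Over all genes 202 to 555 passed in these 3 fits.

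In the lines labelled Arid2 KO none of the 37 passed without the block, against 0.141% of all genes, although 15 had an unadjusted p under 0.05 (13.6% of all genes did) and DESeq2 called 7, all lower (1.43% of all genes). With the block 15 passed, 14 lower and Pfkfb3 higher, against 2.76% of all genes lower and 3.52% higher. Pdk1 went from 50.4, 127 and 81.9 CPM to 19.3, 22.6 and 13.9 CPM, with no overlap (blocked -2.14 ± 0.29, edgeR adjusted p = 0.005715). Gpi1, Ldha, Pgk1, Slc16a1, Egln3 and Bnip3 were among the others that fell. Car9, a carbonic anhydrase, also passed, at 0.0881, 2.84 and 0 CPM in vehicle and 0, 0.0447 and 0 CPM under CKI, with AB52980 the only line above 0.1 CPM in vehicle. A count of 0 allows up to 0.137 CPM in the vehicle library concerned, for counting error only.

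In the Smarcb1 KO lines none of the 37 passed without the block (0.032% of all genes did), 4 had an unadjusted p under 0.05 (8.53% of all genes did), and DESeq2 called none (1.76% of all genes). With the block 1 passed, Pdk1, against 0.569% of all genes lower and 0.486% higher. Pdk1 went from 58.6, 42.2 and 95.1 CPM to 24.4, 18.2 and 28.2 CPM in BS53736, BS53958 and BS53965, apart from each other (blocked -1.40 ± 0.29, edgeR adjusted p = 0.04902). Ldha went from 687, 1377 and 999 CPM to 487, 1456 and 606 CPM, overlapping, with BS53958 up and the other 2 lines down. Over the 4 genotypes with the block, 25 passed, 23 lower and 2 higher, against 21% and 21.9% of all genes. Pfkp, Car9 and Ldhb (higher) were gained.

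The size of the response was then compared between genotypes, since a KO that passes or misses the threshold alone does not show a difference. None of the 37 differed from the Braf response in Arid1a KO lines, in lines labelled Arid2 KO or in Smarcb1 KO lines, and 0%, 0% and 0% of all genes did. With the block none of the 37 differed either, against 0.147%, 0% and 0.032% of all genes. DESeq2 called none of the 37 and 0.255%, 0.0271% and 0.16% of all genes. At an unadjusted p under 0.05 there were 2, 3 and 8 of the 37, against 5.12%, 0.793% and 4.22% of all genes. The median difference in response over the 37 genes was 0.55 on the log2 scale for Smarcb1 KO against Braf, -0.03 for Arid1a KO and 0.13 for Arid2 KO, beside -0.0047, -0.0020 and 0.016 over all genes. For Ldha the Smarcb1 KO response was 1.37 ± 0.55 above that of Braf, and for Pgk1 it was 1.29 ± 0.54, each with an adjusted p of 1 (edgeR). These genotypes share the Braf libraries, so their differences from Braf are not independent of each other.

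Balance between paired isoforms was followed within libraries, where gene length and library size cancel. The log2 ratio of Ldha to Ldhb counts fell in all 12 lines, by 1.85 on average (SD 1.18, n = 12 lines; range -3.93 to -0.38). The exact two-sided sign-flip test gave p = 0.0004883, the smallest that 12 lines allow, and 0.002441 after Benjamini-Hochberg adjustment over 5 ratios. Ldha itself was lower under CKI in 11 lines, while Ldhb was higher in 9 and lower in 3. In AB51189, where the ratio fell by 3.39, Ldhb had only 1 count in vehicle and 5 under CKI. The ratio of Eno2 to Eno1 rose by 0.96 (SD 0.88, n = 12, higher in 9 lines, exact sign-flip p = 0.004883, adjusted 0.01221). Eno2 itself was lower under CKI in 8 lines and Eno1 in 12, and Eno2 had only 9 counts in BS53965 under CKI. The ratio of Pfkp to Pfkl rose by 0.49 (SD 0.52, n = 12, higher in 9 lines, exact sign-flip p = 0.008301, adjusted 0.01383). Pfkp itself was lower in 10 lines and Pfkl in 12. Slc16a3 to Slc16a1 (-1.003, SD 2.03, n = 12; exact p = 0.1147, adjusted 0.1434) and Hk2 to Hk1 (0.47, SD 1.73, n = 12; exact p = 0.3921, adjusted 0.3921) did not pass. In the Smarcb1 KO lines the Ldha to Ldhb change was -0.69, -0.38 and -0.68.

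Under vehicle, more of the 37 genes differed from Braf alone in Smarcb1 KO lines than in the other KO genotypes. The same order held over all genes. Of these, 11.2% were lower and 6.93% higher in Smarcb1 KO lines, against 3.63% called in Arid1a KO lines and 0.0512% in lines labelled Arid2 KO. The 12 hypoxia targets summed to 322.4 to 668.3 CPM in Smarcb1 KO lines and 684.7 to 1666 CPM in Braf lines, without overlap. For the 23 genes of uptake, glycolysis, lactate and pyruvate the sums overlapped, at 9028 to 11830 CPM against 8820 to 10030 CPM. These sums were not tested. In Smarcb1 KO lines 10 of the 37 passed, 8 lower and 2 higher, against 11.2% and 6.93% of all genes. Ndrg1, a hypoxia-induced gene, stood at 1.52, 5.82 and 0.172 CPM against 70.3, 54.6 and 310.1 CPM in Braf lines. The groups were far apart (log2 change -5.85 ± 1.27, edgeR adjusted p = 0.005444). Hk2 stood at 15.4, 32.2 and 23.4 CPM against 232, 288 and 117 CPM, again with no overlap (-3.17 ± 0.62, edgeR adjusted p = 0.002878), and this call held in all 14 alternative fits. Aldoc (-4.27 ± 0.95), at 0.19, 1.75 and 0.474 CPM against 21.4, 13.7 and 11.5 CPM, also held in all 14.

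The other genes lower in Smarcb1 KO lines were Car12, Egln3, Slc16a3, Vegfa and P4ha2. Car12, a carbonic anhydrase that acts on pH, was low throughout, at 0, 0.097 and 0.0431 CPM against 6.22, 1.597 and 1.857 CPM. Vegfa stood at 72.4, 53.3 and 88.0 CPM against 187, 129.6 and 394 CPM (-1.74 ± 0.54, edgeR adjusted p = 0.03391). Egln3 stood at 0.19, 0.582 and 1.16 CPM against 15.8, 5.77 and 18.8 CPM. Slc16a3 overlapped, at 0.712, 0.582 and 0.603 CPM against 0.691, 1.39 and 15.1 CPM, where B52482 was high, and P4ha2 stood at 0.285, 12.6 and 0 CPM against 66.4, 192 and 94.5 CPM. On the higher side, Gpi1 stood at 1042, 757 and 825 CPM against 450.2, 351 and 655 CPM (0.84 ± 0.26, edgeR adjusted p = 0.03183). Adm, which encodes the vasodilator adrenomedullin, rested on 1 line: it stood at 0.332, 31.8 and 0 CPM in BS53736, BS53958 and BS53965, and it did not pass without BS53958. Besides Hk2 and Aldoc, each of these calls was lost in some of the alternative fits: Ndrg1 in 1 of 14 (only the groups compared), Car12 in 2, Egln3 in 5, Gpi1, Slc16a3, Vegfa and P4ha2 in 7 each, and Adm in 7 of 12. The largest adjusted p (edgeR) was 0.2838 for Vegfa, 0.1431 for Gpi1, 0.1801 for P4ha2 and 0.5679 for Slc16a3. Between 5 and 8 of the 37 passed when 1 line was left out, beside 1620 to 2450 of all genes. Without BS53958 and BS53965 the Smarcb1 KO group is BS53736 alone, which is assumed to vary like the other groups, so the count of that fit is not given. With only the groups compared 4 passed. Leaving out B47275, B52482, BS53736 or BS53965 gave 5, 6, 5 and 6.

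**Figure D5:**
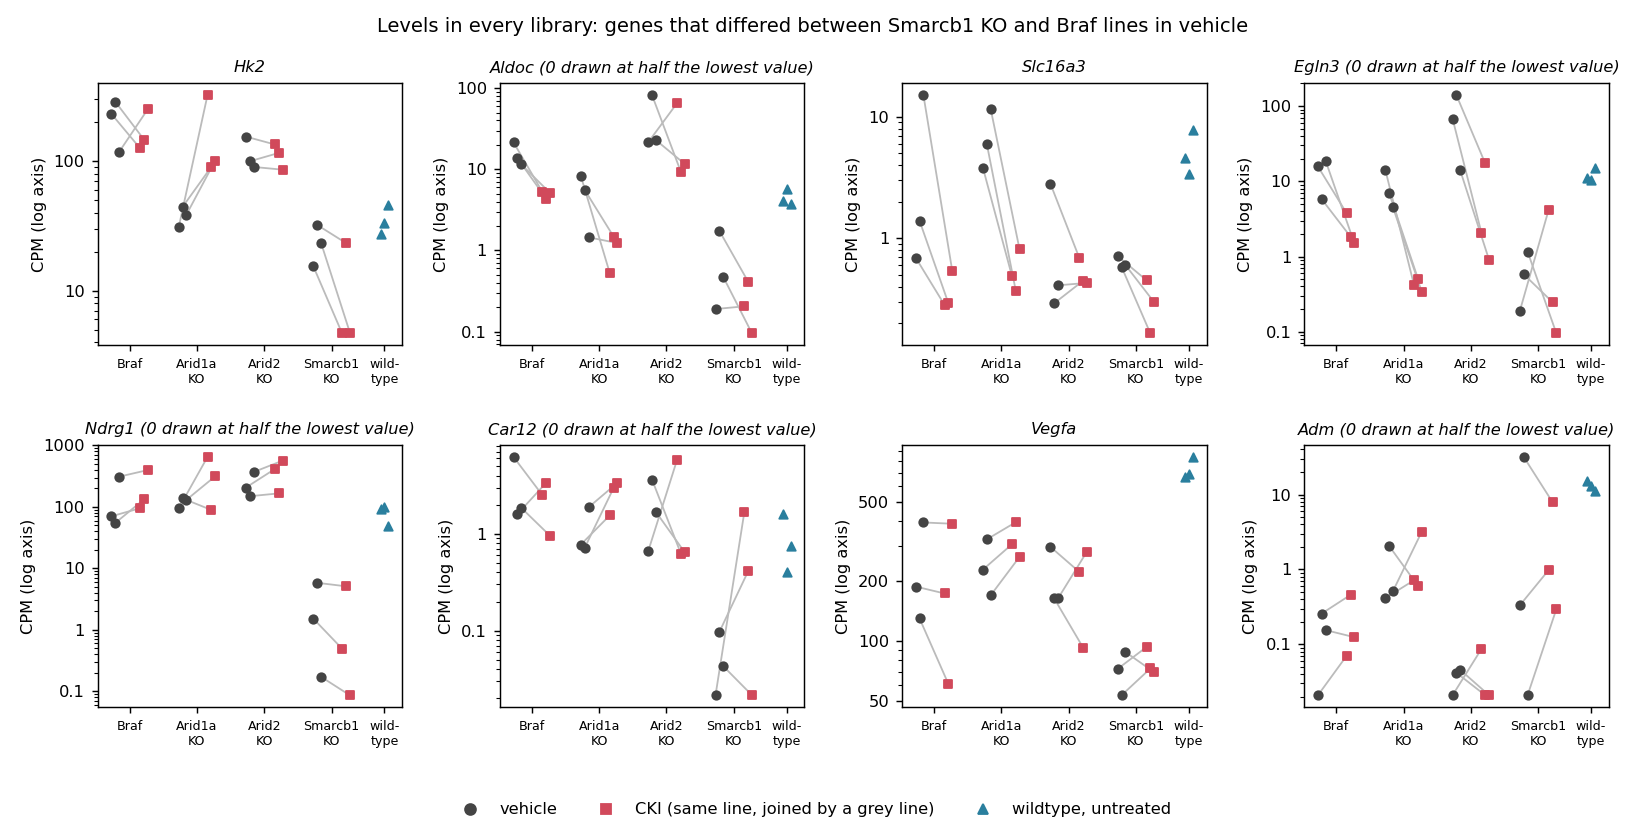
Levels (CPM, log axis) in all 27 libraries of 8 genes that differed between Smarcb1 KO and Braf lines in vehicle, with the 2 libraries of a line joined; a level of 0 is drawn at 0.5 times the lowest level above 0. Hk2, Ndrg1 and Aldoc are lower in all 6 Smarcb1 KO libraries than in any Braf library, while the high Adm points come from line BS53958.

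In Arid1a KO lines in vehicle 1 of the 37 passed, against 3.63% of all genes. It was Hk2, at 30.8, 44.2 and 38.5 CPM against 232, 288 and 117 CPM in Braf lines, with no overlap (-2.49 ± 0.60, edgeR adjusted p = 0.03136). The call was lost without any of BA45198, BA47473, BA49112, B47275 or B48051 (adjusted p up to 0.1245, edgeR). These 2 groups also differed in vehicle in summed fibroblast markers, at 1313 to 3655 CPM in Arid1a KO lines against 6.91 to 177.3 CPM in Braf lines. Of these markers Col1a1 went the other way (group means 4.51 and 19.5 CPM). The part of this marker difference in the Hk2 contrast was not tested. In lines labelled Arid2 KO none passed, against 0.0512% of all genes, with 3 of the 37 at an unadjusted p under 0.05 (12.4% of all genes) and 1 called by DESeq2 (3.59% of all genes). Ldhb did not overlap, at 0.044, 1.501 and 1.641 CPM against 53.1, 71.6 and 8.36 CPM, but missed the threshold (-5.37 ± 1.21, edgeR adjusted p = 0.1005).

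Under CKI, 8 of the 37 differed between Smarcb1 KO and Braf lines, 4 lower and 4 higher, against 13.1% and 10.1% of all genes, so neither share is far from that of all genes. With only the groups compared 1 passed, Aldoc. Hk2 stood at 4.67, 23.3 and 4.75 CPM against 125, 146 and 252 CPM (-3.98 ± 0.64, edgeR adjusted p = 0.0007817). Ndrg1, at 0.492, 5.10 and 0 CPM against 95.1, 133 and 398 CPM, was lower too, and so were Aldoc and P4ha2. The 0 of BS53965 allows up to 0.891 CPM at its low depth. The 4 that were higher were Gpi1, Eno1, Tpi1 and Pgk1. Gpi1 stood at 428, 495 and 528 CPM against 249.8, 170.0 and 235 CPM, with no overlap (1.14 ± 0.26, edgeR adjusted p = 0.006645). Eno1 stood at 473, 827 and 471 CPM against 311, 158 and 262 CPM (1.27 ± 0.31, edgeR adjusted p = 0.01011). The calls of Pgk1 and P4ha2 were lost in 9 and 5 of 14 alternative fits. Without BS53958 alone Tpi1, Pgk1 and Eno1 did not pass. A fit without BS53958 and BS53965 again leaves BS53736 alone with a spread taken from the other groups, and its count is not given. In Arid1a KO lines none passed (0.736% of all genes did), with 3 at an unadjusted p under 0.05 (14.6% of all genes) and none by DESeq2 (5.49% of all genes). In lines labelled Arid2 KO none passed (0.064% of all genes did), with 4 at an unadjusted p under 0.05 (10.5% of all genes) and 1 by DESeq2 (2.43% of all genes).

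The libraries marked wildtype placed the tumor levels beside libraries without mutant Braf. Against them, 20 of the 37 differed in Braf vehicle, 13 higher and 7 lower, against 23.7% and 22.8% of all genes in a fit of 27 libraries with 16821 genes tested. Of the 16 enzymes, 9 were higher. Pkm2 stood at 2838, 2830 and 2956 CPM in Braf vehicle against 633, 549 and 635 CPM in wildtype (2.25 ± 0.40, edgeR adjusted p = 0.0001857), and Eno1 stood at 718, 305 and 712 CPM against 147, 139 and 177 CPM (1.91 ± 0.30, edgeR adjusted p = 6.257e-05). Slc2a1, Hk1, Hk2, Gpi1, Tpi1, Gapdh, Pgk1, Pgam1, Ldha, Slc16a1 and Ero1l were the others that were higher. Of these, Tpi1 lost its call in 10 of 11 alternative fits (adjusted p up to 0.1297, edgeR), including all 6 that left out 1 library or line, and Gpi1 lost its call in 8 of 11 (up to 0.2151), 4 of them such fits.

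Lower in Braf vehicle than in wildtype were Hif1a, Epas1, Vegfa, Adm, Bnip3, Pfkm and Pfkfb3, of which Vegfa did not pass without B47275 (adjusted p = 0.06216, edgeR) and Bnip3 did not pass without 1 of the wildtype libraries (0.05937). Hif1a stood at 160.0, 109 and 146 CPM against 791, 862 and 887 CPM, far apart (-2.61 ± 0.35, edgeR adjusted p = 1.21e-05). Epas1, the alpha subunit typical of endothelium, stood at 3.18, 6.29 and 14.6 CPM against 213, 188 and 145 CPM. The source of the wildtype libraries is given as a tumor cell line, yet they held thyroid follicular markers at a summed 229700 to 348500 CPM, chiefly Tg, against 163.1 to 503.1 CPM in Braf vehicle. They also held 8 endothelial markers (612.5 to 870.2 CPM), 8 skeletal muscle markers (2030 to 4097 CPM), 8 fibroblast markers (2051 to 4068 CPM), 6 adipocyte markers (1195 to 3699 CPM), 6 C cell markers (2468 to 4335 CPM), 5 red blood cell markers (243.6 to 696.3 CPM) and 8 leukocyte markers (351.2 to 535.0 CPM). In Braf vehicle the same lists summed to 1.55 to 5.21, 1.03 to 1.84, 6.91 to 177.3, 2.63 to 12.7, 0.88 to 2.94, 0.05 to 0.28 and 3.18 to 4.59 CPM. Tissue against culture and wildtype against Braf cannot be told apart here. Size factors of the RLE type moved the median of all genes from 0.02 to -0.14 in this comparison and lost the calls of Gpi1 and Tpi1, leaving 18.

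Genes next to the 37 in metabolism were counted from lists chosen with earlier results of these data known. Over all genes 13.6% rose and 13.6% fell in the mean response to CKI, and with counts this small no list is read as standing apart. Of 12 measured genes of pyruvate entry into mitochondria or its control 3 rose and none fell. With the line as a block 5 rose and 1 fell, against 21.9% and 21% of all genes. The 3 were Brp44, a subunit of the mitochondrial pyruvate carrier (0.78 ± 0.13), Pdk2 (1.41 ± 0.27) and Pdk3 (0.59 ± 0.18). Pdk2 and Pdk3 are kinases of the family of Pdk1, which fell, so this count gives no direction of pyruvate entry. Of 7 pentose phosphate genes 1 fell (Pgls, -0.51 ± 0.10), and of 10 glycogen genes 2 fell (Pgm1 and Pgm2) and 1 rose (Ppp1r3c, 4.63 ± 0.86). Of 4 gluconeogenesis genes 1 rose (Pcx, 1.01 ± 0.26) and 1 fell (Pck2, -1.03 ± 0.28). Among 12 further glycolysis genes 2 fell (Adpgk and Pfkfb4) and 1 rose (Gapdhs), with a median of 0.14.

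Further genes of the oxygen response are given beside the same shares. Of 23 further hypoxia targets 3 fell and 5 rose, with a median log2 change of 0.13. Fam162a, a mitochondrial target (-1.04 ± 0.14), and 2310016C08Rik (-1.10 ± 0.21) fell, and Wsb1 (0.41 ± 0.08) rose. Of 10 genes of oxygen sensing 2 rose and 1 fell: Vhl, which encodes the ubiquitin ligase subunit that binds hydroxylated alpha subunits (0.58 ± 0.13), Arnt, the beta subunit (0.51 ± 0.13), and Egln2 (-0.21 ± 0.08).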

How the data were processed

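The data were whole-number read counts per gene, deposited by the authors for 27 libraries in 1 table of 33924 gene symbols; per the submitters' processing notes the tools were STAR 2.4, HTSeq 0.6.1 and DESeq2 with the build mm9. For the annotation, the strand setting and reads that map to several places, nothing is given in the sources used here, so Gapdh, Eno1, Pgk1, Ldha, Aldoa, Tpi1, Pgam1 and Pkm2, which have near-identical pseudogene copies, are uncertain in level. Groups came from the labels, and replicates were separate tumor lines, so p-values measure the spread between these lines. Counts were fitted with edgeR 4.0.16 (R 4.3.3, limma 3.58.1): TMM scaling, filterByExpr by group, quasi-likelihood tests and Benjamini-Hochberg adjustment over all genes tested, called at 0.05. The 24 tumor libraries entered 1 fit of 8 groups (15634 genes, 16 residual degrees of freedom), and the wildtype comparison used all 27 libraries (16821 genes). The fitting script was tested on simulated data with known changes.

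Levels are CPM on TMM-scaled sizes of the 27 libraries, and changes within a line are log2 CPM with a prior count of 2. Isoform ratios used a pseudocount of 0.5 and an exact sign-flip permutation test over 12 lines (4096 flips). The labels give the same line to a vehicle and a CKI library, which pairs them: their deviations from the group means correlated at 0.259 to 0.773 in each of the 12 lines. A fit with the line as a replicate block (8 residual degrees of freedom) is given beside the unblocked one. Alternatives were RLE size factors, other filters on low counts, DESeq2 1.42.0, other sets of libraries, thinning to the shallowest library, other pseudocounts and leaving out lines. The 37 genes and all gene lists were chosen with earlier results of these data known. Any of the 37 could be named, with up to 4 called genes from each other list by the smallest adjusted p; some genes of these lists are not reported here. Figures were drawn with matplotlib 3.10.9 in Python 3.11.15. For each library, 3 counts set the level that a count of 0 allows, which covers counting error only.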

Additional observations from a re-analysis of the deposited data

Results flagged for a closer look

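Between pairs of KO genotypes, 4 of the genes shared a direction under CKI in every line of 1 genotype. They moved the opposite way in every line of the other genotype. The difference between these pairs was not tested. How many of all genes tested show such opposite signs was not counted, for these pairs or against Braf lines. With 3 lines per genotype such signs can arise by chance, so neither count is read as more than chance would give. For Hk2 the median log2 change was 1.39 in Arid1a KO lines and -1.70 in Smarcb1 KO lines, a difference of 3.09. For Ndrg1 it was 0.61 in lines labelled Arid2 KO and -1.46 in Smarcb1 KO lines, a difference of 2.08, though Ndrg1 was at most 5.82 CPM in the latter. In BS53965 the Ndrg1 counts were 4 in vehicle and 0 under CKI. A 0 there allows up to 0.891 CPM, above the 0.172 CPM of vehicle, so the direction of Ndrg1 in that line is not known. For P4ha2 the median log2 change was 1.24 in Arid1a KO lines and -0.88 in lines labelled Arid2 KO, a difference of 2.12. For Epas1 it was 3.06 in Arid1a KO lines and -0.54 in lines labelled Arid2 KO, a difference of 3.59. Against Braf lines, where the difference was tested, 3 genes had changes of opposite sign in all lines. They were Vegfa (Braf median -0.12, Arid1a KO 0.42), Ndrg1 (Braf 0.44, Smarcb1 KO -1.46) and Epas1 (Braf 0.85, lines labelled Arid2 KO -0.54). For Ndrg1 the limit in BS53965 holds here too. None of these 3 differences passed (edgeR adjusted p of 1 each, and 0.4329, 0.6496 and 1 with the line as a block).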

How the results depend on the processing

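Of the alternative values for single genes, 1345 kept their direction and side of the threshold, 153 lost the threshold, 73 gained it and 0 reversed. The mean response to CKI called 20 to 25 of the 37 genes in all its alternatives, and over all genes 4253 without and 6707 with the line as a replicate block. The count of the 37 called by genotype depended on the fit. With the block it was 14 in Braf lines, 24 in Arid1a KO lines, 15 in lines labelled Arid2 KO and 1 in Smarcb1 KO lines, and over all genes 388 against 0, 5053 against 2177, 981 against 22 and 165 against 5 without it. The block changed no call of a difference in response between genotypes among the 37. DESeq2 called 10 in Braf lines (301 of all genes) and 7 in lines labelled Arid2 KO (570 of all genes). In the latter, a minimum of 1 CPM gave 2, and all 27 libraries gave 2. Leaving out 1 line gave 2 to 4 in Arid1a KO lines (202 to 555 of all genes).

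Against Braf in vehicle, Arid1a KO gave 0 with only the compared groups and 0 to 1 without 1 line (68 to 1312 of all genes). Lines labelled Arid2 KO gave 1 with DESeq2 and 0 to 1 without 1 line (0 to 410 of all genes). Smarcb1 KO gave 4 with only the compared groups (785 of all genes against 2837) and 5 to 8 without 1 line (1620 to 2450 of all genes). It gave 6 after thinning to the shallowest library, where the share of all genes is not given here. Under CKI, lines labelled Arid2 KO gave 1 with DESeq2, 1 with all 27 libraries and 0 to 1 without 1 line (0 to 233 of all genes). Smarcb1 KO gave 1 with only the compared groups (521 of all genes against 3618) and 6 to 10 without 1 line (1998 to 3069 of all genes). The ratio of Slc16a3 to Slc16a1 was -1.39 to -0.74 without 1 line, and it passed only without AB52980 (adjusted p = 0.02319, exact sign-flip test). The blocked fits without BS53958 and BS53965 or without AB52980 were chosen after seeing the data. For the mean response, a fit of only the groups compared is the fit already reported. The low depth of BS53965 under CKI (2884130 counts) limits genes under 0.891 CPM there. Other causes of these differences were not tested.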

Other observations

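Ldhb, the lactate dehydrogenase subunit of oxidative tissues, was nearly silent in all 6 libraries of lines labelled Arid2 KO, a pattern singled out after its values were seen. It ranged from 0.044 to 1.64 CPM there and from 4.31 to 145 CPM in the other 18 tumor libraries, with no overlap. Against Braf lines the log2 difference was -5.37 ± 1.21 in vehicle and -6.22 ± 1.26 under CKI, with adjusted p-values of 0.1005 and 0.09316 (edgeR), so neither passed the threshold.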
